A study of Homo sapiens with 42 samples.

Results

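The chromatin loops around ITGB3 on human chromosome 17 were followed through phorbol ester (PMA) treatment of K562, a human leukemia line that has long been in culture. A loop here is a pair of 10 kb anchors on one chromosome that the authors listed, and its count is the number of in situ Hi-C contacts between these anchors. Members were the loops with at least 1 anchor starting between positions 46900000 and 48000000 of chromosome 17, a stretch that runs from GOSR2 past ITGB3, NPEPPS, KPNB1 and TBX21 to CDK5RAP3. They numbered 20 of 33914 loops in the table, and all 20 were among the 24132 loops with enough contacts for a test. The window had been chosen because its loops were low at 72 h, so every value at 72 h is a description of that choice. Calls at 72 h (edgeR, adjusted p under 0.05) are counted only to set them beside the share over all loops, and no p is given for the 20 loops there.

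All cells were wild-type K562 in medium with serum. The groups were cells at 0 h, 6 h and 72 h of 25 nM PMA, with the medium changed in between for the longest treatment. Each time point held 4 biological replicates and 14 samples, which made 42 samples in all. Nothing in the labels says that the replicates came from separate cultures, so p-values measure only the spread between these libraries. A count of contacts carries no expression, so the cell type could not be checked against marker genes, and RNA was not measured here.

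ITGB3 encodes the integrin beta 3 chain. It pairs with the ITGA2B chain to form the fibrinogen receptor of platelets and megakaryocytes, and with ITGAV to form the vitronectin receptor. PMA activates protein kinase C and drives K562 cells toward a megakaryocyte-like state. Loops form where cohesin extrudes DNA until it meets barriers such as CTCF, or where promoters and enhancers meet, and Hi-C reads them as pairs of positions in frequent contact. The gene's neighbours have other roles: CDC27 is a subunit of the anaphase-promoting complex, NPEPPS is the puromycin-sensitive aminopeptidase, KPNB1 is the nuclear import receptor importin beta 1, and TBX21 is T-bet, a transcription factor of T helper 1 and natural killer cells. SP2 and SP6 are zinc-finger transcription factors of the Sp family.

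Of the 20 loops, 15 had both anchors in the window and 5 reached outside it. Their lengths ran from 30 kb to 630 kb with a median of 150 kb. They used 30 distinct anchors, of which 10 served more than 1 loop, so that the loops are not independent of each other. An end of a protein-coding gene lay in 8 anchors, and 23 anchors lay over such a gene. The window held 20 protein-coding genes. ITGB3 (chr17:47253827-47313743, hg38 positions in RefSeq's GRCh38.p14 annotation) had its higher-coordinate end in an anchor and its lower-coordinate end in none. NPEPPS had an end in an anchor, and KPNB1 and TBX21 did not.

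Promoters are shown for the anchors that carry the contrasts reported below: SCRN2 and SP2 at the strongest loop of the window, SCRN2 again at the loop that fell by 6 h, and TBKBP1 and CDK5RAP3 at nearby loops whose ranges at 0 h and 72 h overlapped. The sequences are RefSeq's (GRCh38.p14), read 5′ to 3′ on the gene's strand from 250 bases before a start to the 50 bases that follow from it. Capitals mark the GC box GGGCGG or its reverse complement CCGCCC, the core of sites that Sp-family factors bind. The SCRN2 promoter lies at chr17:47841224-47841523 on the minus strand. The promoters of SP2 (chr17:47895986-47896285), TBKBP1 (chr17:47693813-47694112, its lowest start) and CDK5RAP3 (chr17:47970863-47971162, the higher of its starts in the anchor) lie on the plus strand.
SCRN2: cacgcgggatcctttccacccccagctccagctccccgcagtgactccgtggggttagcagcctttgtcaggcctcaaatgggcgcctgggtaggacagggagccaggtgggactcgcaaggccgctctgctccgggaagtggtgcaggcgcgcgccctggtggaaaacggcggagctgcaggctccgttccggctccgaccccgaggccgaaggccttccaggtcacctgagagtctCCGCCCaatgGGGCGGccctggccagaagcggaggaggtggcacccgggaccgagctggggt
SP2: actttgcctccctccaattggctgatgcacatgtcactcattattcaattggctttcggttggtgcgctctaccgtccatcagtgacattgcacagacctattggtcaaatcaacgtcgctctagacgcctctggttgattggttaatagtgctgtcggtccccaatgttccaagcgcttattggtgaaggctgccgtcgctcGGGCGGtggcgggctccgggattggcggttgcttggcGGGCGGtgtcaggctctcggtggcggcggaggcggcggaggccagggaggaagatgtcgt
TBKBP1: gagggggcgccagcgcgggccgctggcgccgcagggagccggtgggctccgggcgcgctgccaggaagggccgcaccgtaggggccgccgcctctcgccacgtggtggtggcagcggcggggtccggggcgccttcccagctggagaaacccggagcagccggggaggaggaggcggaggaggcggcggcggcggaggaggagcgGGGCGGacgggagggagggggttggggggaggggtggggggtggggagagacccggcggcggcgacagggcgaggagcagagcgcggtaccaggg
CDK5RAP3: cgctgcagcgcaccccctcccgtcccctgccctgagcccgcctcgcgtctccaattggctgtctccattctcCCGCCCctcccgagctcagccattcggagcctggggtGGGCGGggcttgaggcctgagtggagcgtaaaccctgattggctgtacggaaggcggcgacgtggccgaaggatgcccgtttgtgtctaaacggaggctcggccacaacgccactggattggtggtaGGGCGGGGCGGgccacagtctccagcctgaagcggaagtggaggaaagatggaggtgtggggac

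GC boxes numbered 2 in SCRN2, 2 in SP2, 1 in TBKBP1 and 4 in CDK5RAP3, and the boxes of SCRN2 began 12 and 2 bases before the start. The boxes of CDK5RAP3 closest to its start overlap each other. A GC box on either strand was present in 45% of 35116 RefSeq promoters of 300 bases. The other motifs searched on both strands were TGANTCA, the AP-1 site, and GATAA, which GATA factors bind. They occur in 7.71% and 22.7% of all promoters and in none of these 4 windows. The overlapping promoters of GOSR2 and GOSR2-DT at an anchor of loop29718, not shown, each held 1 GATAA match on either strand. The other start of CDK5RAP3 in its anchor and the highest start of TBKBP1 had 0 GC boxes, so the count depends on the start shown. These matches describe the letters and show no binding.

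The window lost share among all loop contacts as treatment went on. The 20 loops together held 0.150% ± 0.0052 (SD, n = 4) of a library's loop contacts at 0 h, 0.137% ± 0.0053 (n = 4) at 6 h and 0.119% ± 0.0022 at 72 h. At 72 h n is 3, here and in every mean below, because replicates 3 and 4 did not differ beyond sampling noise (p = 0.367 in a chi-square test of their counts, ratio to the degrees of freedom 1.003) and were counted as 1 sample. The fits, with their standard errors and calls, and the counts of ranges that do not overlap kept them as 2 libraries. With them summed to 1 library, the loops called lower at 72 h were again 11. Replicates 3 and 4 were also the closest pair at 0 h (ratio 1.018, chi-square p = 0.0253) and 6 h (1.023, p = 0.00621). They count as 2 samples there, and pairs of other replicates had ratios of 1.056 to 1.272. The range over libraries was 0.143% to 0.156% before treatment, 0.130% to 0.142% after 6 h and 0.116% to 0.122% after 72 h, so the 3 times did not overlap. Between 0 h and 6 h the gap was narrow, with 0.1432% in 0 h replicate 3 and 0.1424% in 6 h replicate 4. All listed loops together held 849895 to 1472197 contacts per library at 0 h, 736929 to 1090199 at 6 h and 988726 to 1181057 at 72 h. Contacts outside the listed loops are not counted. These shares sum over the chosen loops and carry no test, and no other set of loops was summed beside them.

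**Figure D1:**
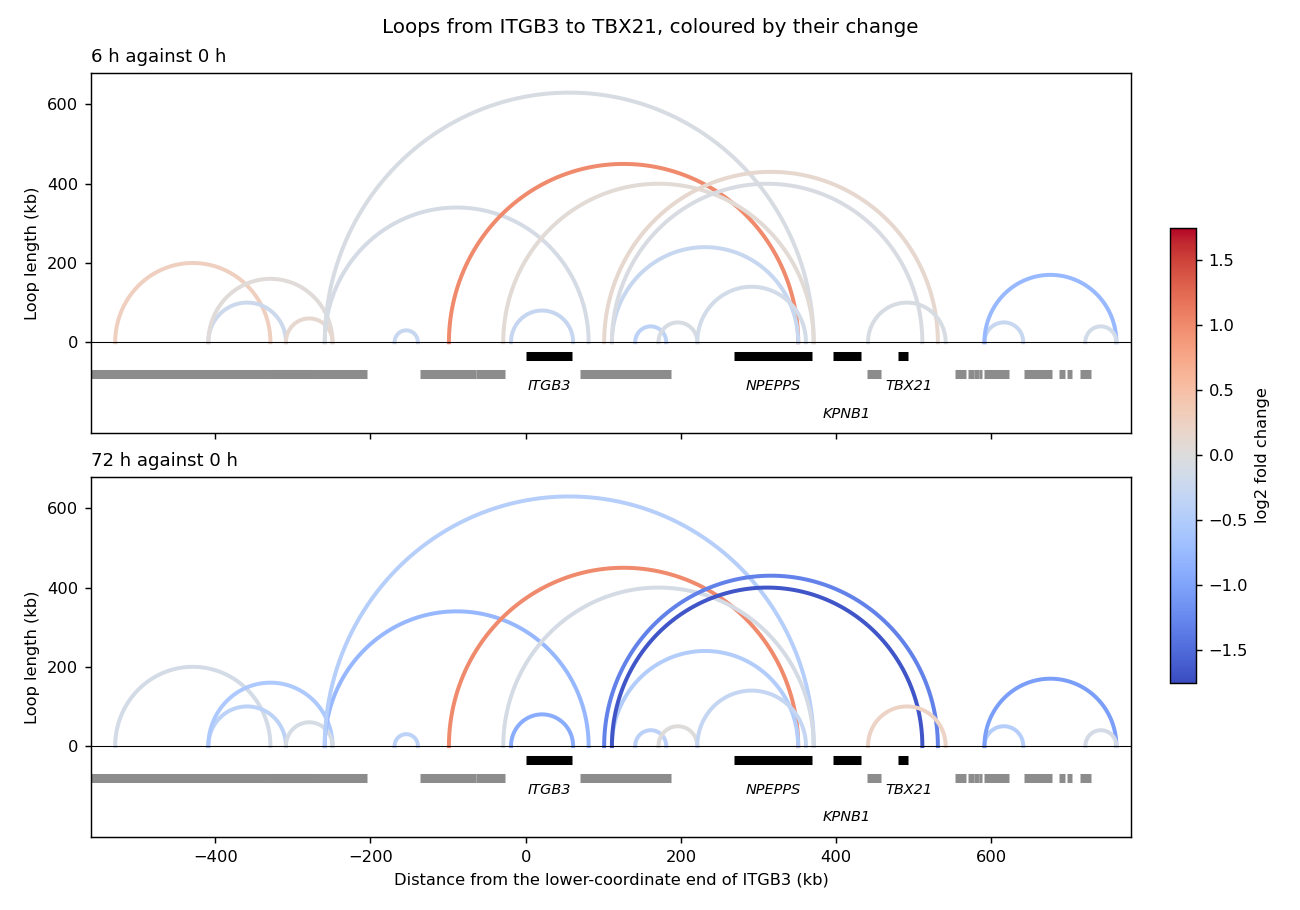
Each arc is 1 of the 20 loops, drawn from anchor to anchor against the distance in kb from the lower-coordinate end of ITGB3, with its height equal to its length in kb and its colour giving the log2 fold change at 6 h (upper panel) or 72 h (lower panel) against 0 h. Black bars are the genes named under them and grey bars are the other protein-coding genes. The 2 darkest arcs at 72 h, loop29730 (-1.67) and loop29728 (-1.30), enclose NPEPPS, KPNB1 and TBX21, and at 6 h the same arcs are near 0.

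At ITGB3 itself, loop29727 joined the region just below the gene (chr17:47230001-47240000) to the anchor with its higher-coordinate end (chr17:47310001-47320000), over 80 kb. Normalized counts here are contacts per 1000000 contacts in the tested loops of a library, after TMM scaling. Its normalized count was 188, 158, 157 and 175 in the 4 libraries of 0 h. It was 138, 113, 178 and 141 at 6 h, and 97.3, 101, 83.2 and 77.7 at 72 h. All 72 h libraries lay below all libraries of both earlier times, while 6 h and 0 h overlapped through the third 6 h library. The mean was 169 ± 15 (SD, n = 4) at 0 h, 143 ± 27 (n = 4) at 6 h and 93.0 ± 11 at 72 h. At 72 h the fitted level was 53.3% of that at 0 h, a log2 fold change of -0.91 (SE 0.11). The change at 6 h, -0.28 (SE 0.10), did not pass the threshold in edgeR's quasi-likelihood test (Benjamini-Hochberg adjusted p = 0.084). It was -0.47 within replicates 1 and 2 (adjusted p = 0.045) and -0.07 within replicates 3 and 4 (adjusted p = 0.87), and without 6 h replicate 3 it was -0.38 (adjusted p = 0.021). From 6 h to 72 h the log2 fold change was -0.63, with -0.34 within replicates 1 and 2 and -0.96 within replicates 3 and 4.

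Longer loops passed over ITGB3, and they did not move together. The 340 kb loop29722, which encloses CDC27, the atrial and embryonic myosin light chain gene MYL4, and ITGB3, was low in all libraries. It counted 17.4, 26.6, 10 and 21.6 at 0 h, 19.6, 15.9, 22.6 and 13.3 at 6 h, and 10.6, 9.04, 13.5 and 8.93 at 72 h. Its 0 h replicate 3 lay within the range of 72 h. The log2 fold change was -0.77 (SE 0.27) at 72 h, a call that was lost with DESeq2 (-0.87), within replicates 3 and 4 (-0.46) and without 0 h replicate 2 (-0.59).

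Both loops anchored at the end of NPEPPS had ranges that overlapped between times. The 400 kb loop29726, from the end of MYL4 to the end of NPEPPS across ITGB3, averaged 28.1 at the start, 29.0 after 6 h and 24.7 after 72 h, with a log2 fold change of 0.07 at 6 h (SE 0.20, edgeR adjusted p = 0.88) and -0.11 at 72 h (SE 0.20). The 630 kb loop29723, the longest of the window and also anchored at the end of NPEPPS, averaged 14.6, 14.0 and 8.53, with -0.08 at 6 h (SE 0.30, edgeR adjusted p = 0.91) and -0.46 at 72 h (SE 0.31). Few contacts stand behind the longest loop, whose normalized count was as low as 4.67 in a 6 h library.

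Also spanning ITGB3 was loop29725, the only 1 of the 20 called higher at either time. It joined the body of CDC27 (chr17:47150001-47160000) to the body of NPEPPS (chr17:47600001-47610000) over 450 kb and encloses MYL4, ITGB3 and EFCAB13. Its normalized counts were 13, 15.2, 12.5 and 1.14 at 0 h, 19.6, 16.8, 25.5 and 36.2 at 6 h, and 29.2, 27.1, 20.8 and 18.7 at 72 h. Each later library lay above every 0 h library, and 6 h overlapped 72 h. The log2 fold change at 6 h was 1.00 (SE 0.27, edgeR adjusted p = 0.0043). These values rest on few contacts, 18, 16, 10 and 1 raw counts at 0 h. Without 0 h replicate 4, the library with a single contact, the change at 6 h was 0.71 (adjusted p = 0.062). Without 6 h replicate 4 it was 0.77 (adjusted p = 0.065), within replicates 1 and 2 it was 0.33 (adjusted p = 0.65), within replicates 3 and 4 it was 1.92 (adjusted p = 0.00059), and DESeq2 gave an adjusted p of 0.053. At 72 h the log2 fold change was 1.01 (SE 0.26), and 0.72 without 0 h replicate 4.

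The deepest changes of the window lay beyond ITGB3, on a pair of long loops that start in EFCAB13, a gene for an EF-hand protein, and land past TBX21. Loop29730 (chr17:47360001-47370000 to chr17:47760001-47770000, 400 kb) and loop29728 (chr17:47350001-47360000 to chr17:47780001-47790000, 430 kb) both enclose NPEPPS, KPNB1, TBKBP1 and TBX21. Their lower anchors are adjacent bins, so the loops lie side by side and are not separate evidence.

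Loop29730 counted 26.1, 24.7, 23.8 and 23.9 at 0 h, 25.5, 32.7, 17 and 15.7 at 6 h, and 7.96, 11, 1.04 and 5.36 at 72 h. Every 72 h library was below every library of 0 h and 6 h, which overlapped each other. Means were 24.6 ± 1.0 (SD, n = 4), 22.7 ± 8.0 (n = 4) and 7.40 ± 4.0. The fitted level at 72 h was 31.4% of 0 h, a log2 fold change of -1.67 (SE 0.29). It was -1.30 within replicates 1 and 2 and -2.21 within replicates 3 and 4, and -1.42 without 72 h replicate 3, which held 1 raw contact. At 6 h the change was -0.06 (SE 0.22, edgeR adjusted p = 0.91).

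Loop29728 counted 22.5, 25.6, 23.8 and 27.3 at 0 h, 27.5, 23.4, 25.5 and 32.6 at 6 h, and 7.08, 7.03, 16.6 and 5.36 at 72 h. Here the third 72 h library, with 16 raw contacts against 6 to 8 in the other 72 h libraries, was the nearest to 0 h but still below it. Means were 24.8 ± 2.1 (SD, n = 4), 27.2 ± 3.9 (n = 4) and 8.37 ± 2.3. The SD at 72 h understates the spread between libraries, since replicates 3 and 4, averaged before it, were 16.6 and 5.36 here. The fitted level at 72 h was 40.6% of 0 h (log2 fold change -1.30, SE 0.27). Replicates 1 and 2 alone gave -1.55, and replicates 3 and 4 alone gave -1.12. At 6 h the change was 0.13 (SE 0.21, edgeR adjusted p = 0.78). From 6 h to 72 h the log2 fold change was -1.61 in loop29730 and -1.43 in loop29728, so both were low at 72 h against either earlier time.

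Inside the span of these long loops, a shorter one was not lower. Loop29734 joined the start of TBKBP1, an adaptor that binds the kinase TBK1 (chr17:47690001-47700000), to a bin past TBX21 (chr17:47790001-47800000), over 100 kb. It counted 84, 97.8, 62.7 and 84.1 at 0 h, 79.4, 80.4, 76.4 and 78.4 at 6 h, and 95.5, 104, 89.4 and 101 at 72 h. The times overlapped between 0 h and 72 h, and all 72 h libraries were above all 6 h libraries. Log2 fold changes were -0.08 at 6 h (SE 0.13, edgeR adjusted p = 0.79) and 0.23 at 72 h (SE 0.12). It was called higher at 72 h with the loop length correction (0.29), with a mean count of at least 20 (0.28) and when scaled to the total count (0.28). The ratio of loop29728 to loop29734 within a library, which depends on no scaling, was 0.308 ± 0.055 (SD, n = 4) at 0 h, 0.346 ± 0.052 (n = 4) at 6 h and 0.087 ± 0.028 at 72 h. The lowest ratio at 0 h was 0.262 and the highest at 72 h was 0.186. Both loops were named for their values at 72 h, so the gap at 72 h describes that choice. For loop29730 over loop29729, described below, the lowest ratio was 0.456 at 0 h and 0.361 at 6 h, and the highest at 72 h was 0.36.

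**Figure D2:**
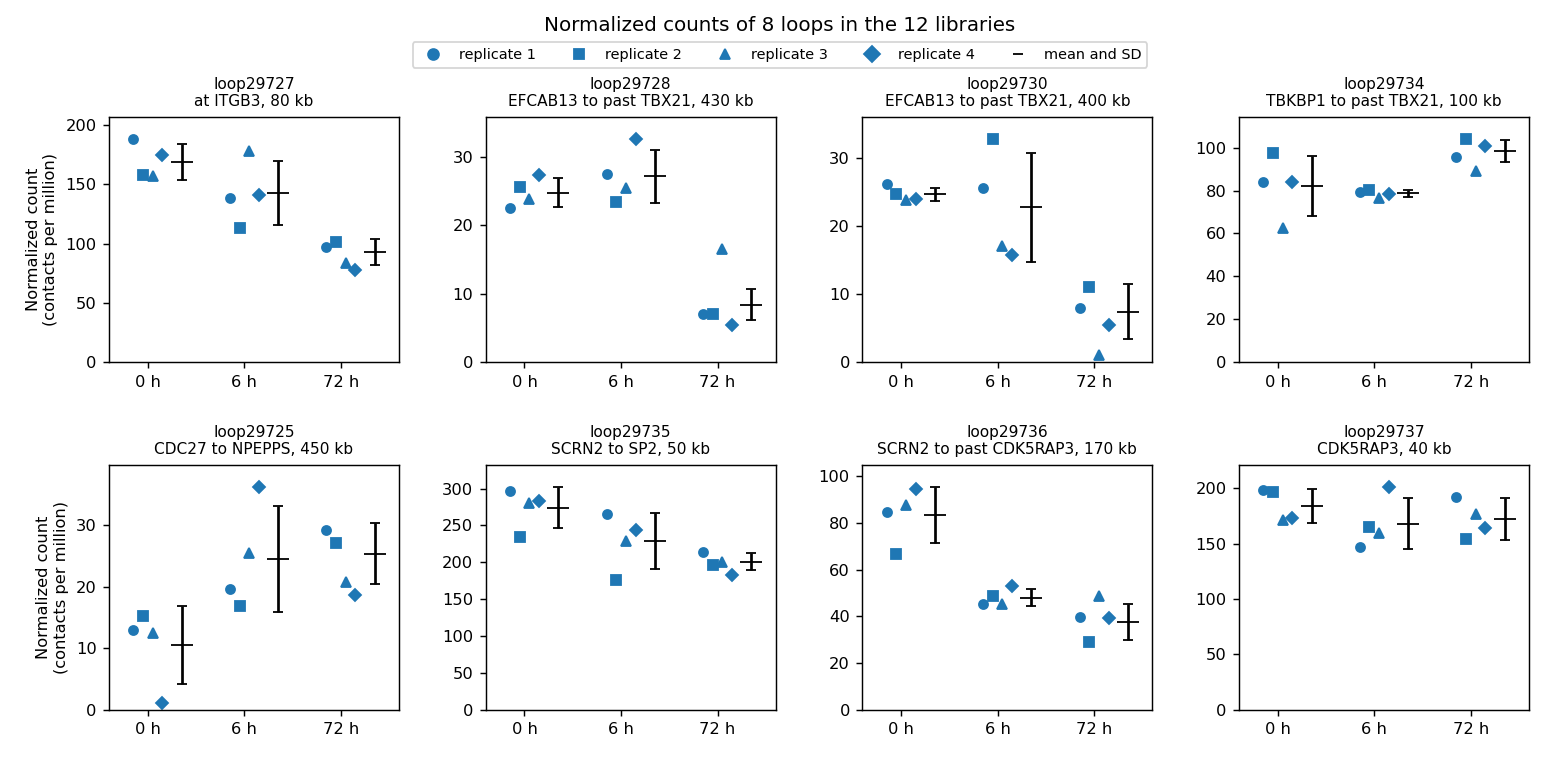
Normalized counts (contacts per 1000000 contacts in the library's tested loops) for 8 of the loops at 0 h, 6 h and 72 h. Each loop has 1 panel with the vertical axis from 0. Marker shapes give replicates 1 to 4, and the bar gives mean and SD with 72 h replicates 3 and 4 counted as 1 sample. Loop29728 and loop29730 stay near 25 at 0 h and drop at 72 h, loop29736 drops by 6 h from 83.3 to 48.0 on average, and loop29734 and loop29737 overlap between 0 h and 72 h.

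Loops inside EFCAB13 and toward NPEPPS moved less. The 240 kb loop29729 (EFCAB13 to NPEPPS) averaged 47.9 at 0 h and 33.8 at 72 h, with -0.26 at 6 h (edgeR adjusted p = 0.36), -0.49 at 72 h (SE 0.17) and overlapping ranges. Its call at 72 h was lost within replicates 1 and 2 (-0.53), within replicates 3 and 4 (-0.49) and with DESeq2 (-0.51), where the change was about as large, and without 0 h replicate 1 (-0.38) and without 72 h replicate 1 (-0.33). The 40 kb loop29731 within EFCAB13 averaged 72.9, 54.9 and 55.7, with a log2 fold change of -0.40 at both times (SE 0.14 at 6 h and 0.13 at 72 h, edgeR adjusted p = 0.055 at 6 h). Its call at 72 h was lost with DESeq2 (-0.42), with the loop length correction (-0.22), within replicates 3 and 4 (-0.26) and without 0 h replicate 2 (-0.34). At 6 h loop29731 was called lower under 6 of 27 alternative settings. Next to them loop29732 averaged 68.1, 64.7 and 71.7 with 0.03 at 72 h (SE 0.13). The 140 kb loop29733, which lands in the body of NPEPPS, averaged 62.1, 56.2 and 49.9 with -0.30 at 72 h (SE 0.14). Its 72 h libraries, 45.2 to 54.8, all lay below its 0 h libraries, 56 to 71.6, and it was called lower with no filter on low counts (-0.36).

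The higher-coordinate end of the window, around the Sp-family genes, held the loop that fell at 6 h. Loop29736 ran 170 kb from the anchor with the start of SCRN2, a secernin-family gene, and an end of SP6 (chr17:47840001-47850000) to chr17:48010001-48020000. Among the genes it encloses are SP2 and CDK5RAP3. Normalized counts were 84.7, 66.5, 87.8 and 94.4 at 0 h, 45.1, 48.6, 45.3 and 53.1 at 6 h, and 39.8, 29.1, 48.9 and 39.3 at 72 h. The lowest 0 h library was above the highest 6 h library, and 6 h and 72 h overlapped. Means were 83.3 ± 12 (SD, n = 4), 48.0 ± 3.7 (n = 4) and 37.7 ± 7.7.

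Loop29736 fell at 6 h by 0.76 on the log2 scale (SE 0.14), to 59.0% of the level at 0 h, with an edgeR adjusted p of 4.8e-05. The change was -0.70 within replicates 1 and 2 (adjusted p = 0.014) and -0.85 within replicates 3 and 4 (adjusted p = 0.0076), and DESeq2 gave an adjusted p of 0.0034. The loop stayed past the threshold under all 27 alternatives tried. This 6 h test shares the 0 h libraries with the contrast that chose the window, so its direction is not free of that choice. At 72 h the log2 fold change was -1.04 (SE 0.14), and from 6 h to 72 h it was -0.28 (SE 0.16).

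Its neighbours through shared anchors moved less. Loop29735 (50 kb, from the same SCRN2 anchor to the start of SP2 at chr17:47890001-47900000) was the strongest loop of the window. It counted 297, 234, 281 and 283 at 0 h, 266, 176, 229 and 244 at 6 h, and 214, 197, 200 and 183 at 72 h. All 72 h libraries were below all 0 h libraries, and 6 h overlapped both. Means were 274 ± 28 (SD, n = 4), 229 ± 38 (n = 4) and 201 ± 12, with log2 fold changes of -0.26 at 6 h (SE 0.09, edgeR adjusted p = 0.056) and -0.46 at 72 h (SE 0.09). Loop29735 was called lower at 6 h under 7 of the 27 alternatives.

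Loop29737 (40 kb), which shares the other anchor of loop29736 and starts at CDK5RAP3 (chr17:47970001-47980000), was the next strongest. It counted 198, 197, 171 and 173 at 0 h, 147, 165, 160 and 201 at 6 h, and 192, 154, 177 and 164 at 72 h. The 3 times overlapped, with log2 fold changes of -0.15 at 6 h (SE 0.10, edgeR adjusted p = 0.42) and -0.11 at 72 h (SE 0.10). The ratio of loop29736 to loop29737 within a library was 0.457 ± 0.093 (SD, n = 4) at 0 h, 0.287 ± 0.018 (n = 4) at 6 h and 0.218 ± 0.035 at 72 h, and the lowest 0 h ratio, 0.338, was above the highest 6 h ratio, 0.307. Against loop29735 the ratio averaged 0.304 at 0 h, 0.215 at 6 h and 0.188 at 72 h. There the lowest 0 h ratio, 0.285, was close to the highest 6 h ratio, 0.277.

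At the lower-coordinate end lie CDC27 and GOSR2, a SNARE protein of the Golgi. The 30 kb loop29724 at the end of CDC27, the strongest on this side, counted 168, 165, 169 and 160 at 0 h, 126, 136, 146 and 147 at 6 h, and 126, 127, 135 and 118 at 72 h. Both later times were below all 0 h libraries. The log2 fold change was -0.26 at 6 h (SE 0.10, edgeR adjusted p = 0.099) and -0.39 at 72 h (SE 0.10), and with a correction for loop length it was -0.09 and -0.16, which ended the call at 72 h.

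Loop29720 (160 kb, from WNT9B, a Wnt ligand gene, past GOSR2) counted 42, 56, 42.7 and 48.9 at 0 h, 52.9, 51.4, 42.5 and 45.8 at 6 h, and 37.2, 32.1, 27 and 29.5 at 72 h. Its 72 h libraries were below all others, with -0.55 at 72 h (SE 0.17) and 0.04 at 6 h (SE 0.16, edgeR adjusted p = 0.91). Its call at 72 h was lost within replicates 1 and 2 alone (-0.47). The 100 kb loop29719, which shares its WNT9B anchor, averaged 85.1, 75.5 and 64.8, with -0.38 at 72 h (SE 0.13). That call was lost with DESeq2 (-0.39), within replicates 3 and 4 (-0.04), without 0 h replicate 1 (-0.31) and without 72 h replicate 2 (-0.32). The remaining loops, loop29721 (60 kb) and loop29718 (200 kb, to the start of GOSR2), had log2 fold changes of -0.08 and -0.13 at 72 h and 0.14 and 0.28 at 6 h. Their ranges overlapped with 0 h at both times, and in loop29721 all 72 h libraries, 88.3 to 108, lay below all 6 h libraries, 109 to 127.

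**Figure D3:**
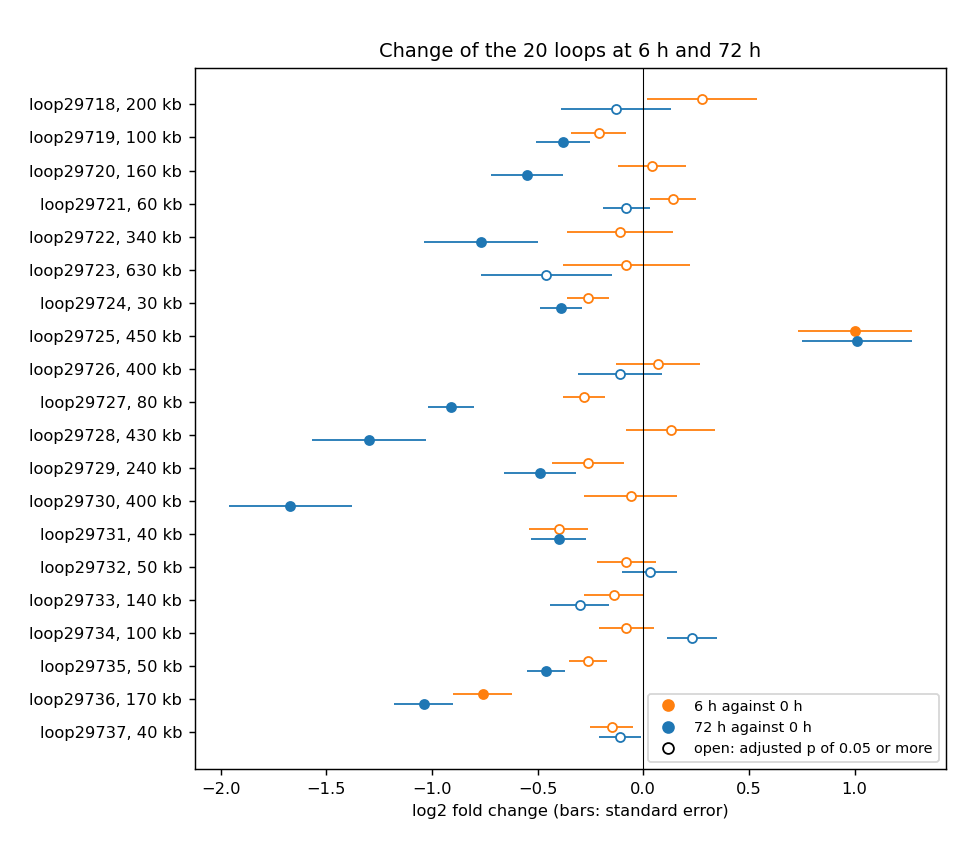
Log2 fold change of each of the 20 loops at 6 h (orange) and 72 h (blue) against 0 h, in order along the chromosome, with bars of 1 standard error; filled points had an edgeR adjusted p under 0.05. At 6 h only loop29725 (1.00) and loop29736 (-0.76) are filled. At 72 h 17 of 20 points lie below 0, beside 49% of all tested loops.

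Over the whole list, 1 of 20 loops fell at 6 h (loop29736) and 1 rose (loop29725), where 4.07% of all tested loops were called lower and 2.34% higher (edgeR, adjusted p under 0.05). A single loop in each direction is near that background. An unadjusted p under 0.05 in edgeR's test was reached by 5 lower loops and 1 higher. No share over all loops is given for that count, so nothing is read from it. In 3 loops all 6 h libraries lay below all 0 h libraries and in 1 all lay above, beside 5.77% and 4.97% of all loops. The median log2 fold change was -0.09, beside 0.01 over all loops. It was -0.22 within replicates 1 and 2 and 0.03 within replicates 3 and 4, so its sign differed between these sets of libraries. The count of lower loops was 2 without 0 h replicate 2, 3 or 4 and without 6 h replicate 1, 3 or 4, where loop29727, loop29731 or loop29735 passed as well. It was 3 with no filter on low counts, where 3.2% of all loops were lower.

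At 72 h, 11 of 20 loops were called lower and 1 higher, beside 16.9% and 16.7% of all tested loops. A log2 fold change below 0 was found in 17 of 20, beside 49% of all tested loops and 69.5% on the rest of chromosome 17. The median was -0.39, beside 0.01 over all loops. In 9 loops all 72 h libraries lay below all 0 h libraries, and in 1 all lay above, beside 14.1% and 14.2% of all loops. Nothing is read from these shares, since the window was chosen on this contrast. Against 6 h, which shares the 72 h libraries with that choice, 5 loops were called lower and 0 higher, beside 9.81% and 10.7% of all tested loops, with a median of -0.21. In 5 loops all 72 h libraries lay below all 6 h libraries and in 1 above, beside 9.43% and 10.4% of all loops.

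Changes at 72 h went with loop length over the whole table. Over all tested loops, short loops were lower at 72 h and long loops higher: 36.3% of loops of at most 100 kb were called lower with a median of -0.18, 24.9% of loops between 100 kb and 200 kb with a median of -0.09, and 10.4% of loops over 200 kb with a median of 0.08. In the window, where the choice on 72 h set these values, 5 of 9 loops of at most 100 kb were lower with a median of -0.38, 2 of 4 between 100 kb and 200 kb with a median of -0.42, and 4 of 7 over 200 kb with a median of -0.49. With a correction for loop length the median at 72 h over all 20 loops was -0.28, with 9 loops called lower, beside 16% of all loops. Loop29730 and loop29728 were -1.71 and -1.35 with that correction, and loop29727 was -0.82.

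**Figure D4:**
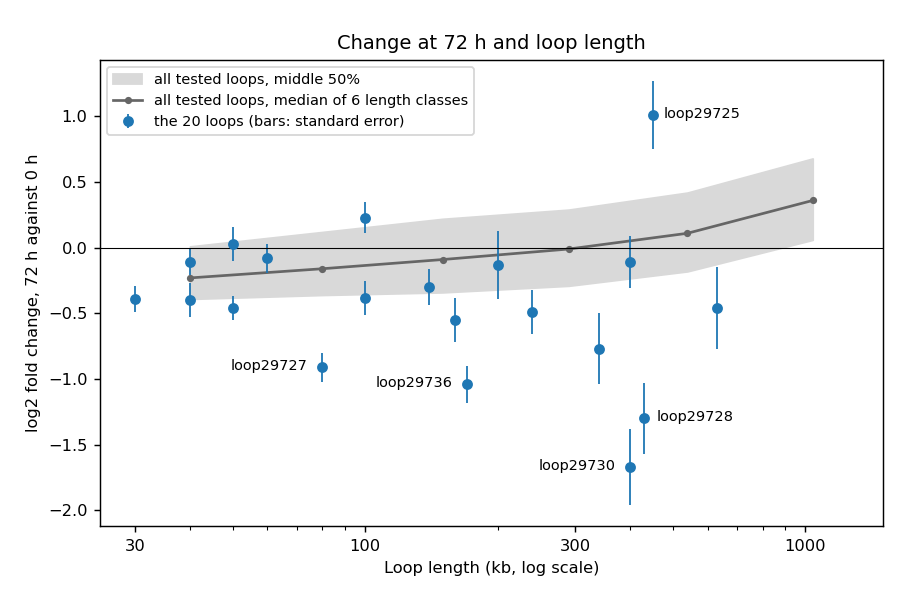
Log2 fold change at 72 h against 0 h and loop length in kb (log scale) for the 20 loops (blue, bars of 1 standard error), with the median (grey line) and the middle 50% (grey band) of all 24132 tested loops in 6 length classes. The grey line rises from -0.23 at 40 kb to 0.36 at 1040 kb, while loop29728 and loop29730 lie far below it at 430 kb and 400 kb and loop29725 above it at 450 kb.

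The same region in the authors' deposited table had 4 of the 20 loops in the class lost (1.48% of all loops), 16 static and 0 gained (2.95% of all loops). The authors' deposited table put loop29727, loop29728, loop29730 and loop29736 in the class lost. The log2 fold changes at 72 h in the authors' deposited table were -0.84, -1.27, -1.79 and -0.99 for them. Loop29725 was static in the authors' deposited table with 0.43 at 72 h, and 18 of the 20 loops had a fold change there. At 6 h the authors' deposited table gave 0.05 for loop29725 and -0.65 for loop29736. The fit here gave 1.00 and -0.76, and DESeq2 run here gave 1.16 and -0.79. How the deposited fold changes were estimated is not given in the sources used here, so they may not be the same measure.

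Loops beside the window were also low at 72 h. In the adjacent stretch of the same width at lower coordinates, 5 of 11 loops were called lower and 0 higher at 72 h with a median of -0.25, and at higher coordinates 6 of 16 were lower and 0 higher with a median of -0.14. Log2 fold changes at 72 h were below 0 in 10 of 11 and 13 of 16 of these loops. Over the 839 other tested loops of chromosome 17, 30.2% were called lower at 72 h with a median of -0.20, so the whole chromosome leaned the same way. At 6 h the flanks had 0 and 2 loops lower and 0 and 1 higher, beside 5.36% lower on the rest of the chromosome. The nearest loops outside the window had log2 fold changes at 72 h of -0.56 (loop29738) and -0.02 (loop29739), both anchored 20 kb past its higher edge. At the lower edge they were -0.25 (loop29711) and 0.30 (loop29714), 70 kb away. No test compared the window with these flanks.

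Other genes of platelet integrin signalling were read from a list of 16 genes. Of these, 9 had a loop with an end of the gene in an anchor, 14 loops in all, and all 14 were tested. At 6 h 3 of 14 were lower and 0 higher in edgeR's test, with a median of -0.01, beside 4.07% and 2.34% of all tested loops. They were at FLNA, which crosslinks actin and binds beta integrin tails (-0.40, adjusted p = 0.045), at ILK, the integrin-linked kinase adaptor (loop21334, -0.45, adjusted p = 0.017), and at PXN, the focal adhesion scaffold paxillin (-0.34, adjusted p = 0.019). These 3 loops were at most 200 kb long. At 6 h 14% of all tested loops of at most 100 kb were called lower. The share was 6.58% between 100 kb and 200 kb and 1.23% over 200 kb, and the list was not matched for length. At 72 h 3 of 14 were lower and 1 higher, with a median of -0.18, beside 16.9% and 16.7% of all tested loops. PXN was -0.42 (edgeR adjusted p = 0.00026), ITGB1, the beta 1 chain, was -0.56 (adjusted p = 0.044), and GNA13, the G alpha 13 subunit, was -0.31 (adjusted p = 0.044). RAP1B, the small GTPase that switches integrins on, had the loop that rose (loop23913, 0.48, adjusted p = 0.0071). Its 72 h libraries counted 63.7, 52.2, 57.2 and 52.7 against 32.6, 43.7, 43.9 and 43.2 at 0 h, with no overlap. Neither ITGA2B nor ITGAV, the partners of ITGB3, had a loop at its ends in the table, and neither did TLN1, APBB1IP, SRC, SYK or VCL.

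Loops elsewhere with the most similar course were found by correlating each log2 normalized count with the log2 summed count of the 20 loops over the 12 libraries, among 16030 loops with a mean count of at least 20. The 5 highest were loop30217 on chromosome 18 with an end of NPC1 in an anchor (r = 0.979), loop2228 on chromosome 1 (0.975), loop1984 on chromosome 1 at MOV10, PPM1J and RHOC (0.969), loop31669 on chromosome 20 (0.967) and loop27066 on chromosome 14 at HEATR4 (0.966). They share libraries and scaling with the window. Their log2 fold changes lay between -0.29 and -0.88 after 6 h and between -0.60 and -1.49 after 72 h. These correlations describe the course over the 12 libraries and say nothing of shared control.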

How the data were processed

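The submitters' processing notes name Juicer 1.5.6, DESeq, DESeq2 and the build hg38; how loops were called is not given in the sources used here. Per the file headers, the authors deposited raw contact counts of 33914 loops in 30 columns, 1 for each technical replicate, with sequencing runs pooled. The authors also deposited log2 fold changes, p-values adjusted by them, loop classes and other columns of anchor positions. Technical replicates were summed to 12 libraries. Loops were filtered with filterByExpr (minimum count 10, minimum total 15), which left out 9782, scaled by TMM and fitted in 1 model over the 3 times with edgeR 4.0.16 (R 4.3.3; glmQLFit and glmQLFTest), with Benjamini-Hochberg adjustment over the 24132 tested loops and a threshold of 0.05. Normalized counts are contacts per 1000000 contacts in the library's tested loops, after TMM scaling. A prior count of 2 per library enters each log2 fold change, which pulls loops with few contacts toward 0. Standard errors come from the fold change of edgeR's own test, which does not use that prior count. A count includes the local background between its anchors, since none was subtracted.

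The members and gene lists were chosen with earlier results of these data known. Loops were named by rule: those with an end of ITGB3, NPEPPS, KPNB1 or TBX21 in an anchor, the 6 lowest and 4 highest at 72 h, the 3 strongest, and those past the threshold at 6 h; the rest are given more briefly. Genes come from RefSeq's GRCh38.p14 tables, in which 11 of the 20 genes of the window have a promoter sequence. An anchor was credited to a gene if it held either end. Alternatives were DESeq2 1.42.0 and other scalings, filters, length corrections, library sets and thresholds. Same-numbered libraries deviated together, though weakly: r was 0.0146 to 0.124 in 12 pairs, over 0.1 in 1 of them. In the 36 other pairs r was -0.0738 to 0.0441.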

Additional observations from a re-analysis of the deposited data

Results flagged for a closer look

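In 5 loops the change at 72 h differed from the change at 6 h, by the fit's own comparison of the later times. The change at 72 h minus that at 6 h was -0.60 on the log2 scale in loop29720, -0.66 in loop29722, -0.63 in loop29727, -1.43 in loop29728 and -1.61 in loop29730. All were lower at 72 h, and since the 72 h libraries chose the window, the differences are descriptions. In loop29722 the difference lost its call in 12 of 26 alternatives. It was lost within replicates 1 and 2 for loop29727, and within replicates 1 and 2 and within replicates 3 and 4 for loop29720. In the 40 groups of 4 libraries at 0 h and 6 h, 0 had a library far from the others, where chance gives about 2.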

How the results depend on the processing

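No called loop changed sign under any alternative, and 15 of 20 loops kept their side of the threshold under all of them at 6 h, 12 at 72 h and 15 for 72 h against 6 h. Depth limits the loops of few contacts, and the 72 h choice of the window limits every value at 72 h. The causes of the shifts below were not tested. At 6 h the members' median log2 fold change was -0.14 with a mean count of at least 20, -0.22 within replicates 1 and 2, 0.03 within replicates 3 and 4, a reversed sign, and -0.06 when scaled to the total count; leaving out 1 library gave -0.17 to -0.06. At 72 h the median was -0.28 with the loop length correction, -0.33 with a mean count of at least 20, -0.46 with no filter, -0.44 within replicates 1 and 2, -0.31 within replicates 3 and 4, -0.43 with replicates 3 and 4 summed at each time and -0.34 when scaled to the total count; leaving out 1 library gave -0.45 to -0.36. For 72 h against 6 h it was -0.15 with a mean count of at least 20, and -0.25 with no filter and within replicates 1 and 2 and within replicates 3 and 4; leaving out 1 library gave -0.25 to -0.18.

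Counts of loops called lower are given with the share of all loops called lower in brackets. At 6 h the count was 3 with the batch term, replicates 1 and 2 against 3 and 4 (4.63%), 0 of 15 with both anchors in the window (4.07%), 3 with no filter (3.2%), 2 within replicates 1 and 2 (1.65%) and 5 with technical replicates as libraries (5.03%); leaving out 1 library gave 1 to 2 (2.13% to 4.1%). With the replicate block it was 4 (5.06%), and the block changed no count at 72 h (11 against 0 h, 18%, and 5 against 6 h, 11%). Same-numbered libraries deviated together only weakly, and the main fit held no block. At 72 h the count was 7 with DESeq2 (10.9%), 5 with a fold change of at least 1.5 (6.07%) and 7 within replicates 3 and 4 (8.87%); leaving out 1 library gave 9 to 11 (14.2% to 17.4%). For 72 h against 6 h it was 2 with a mean count of at least 20 (10.9%, 14 loops tested) and within replicates 1 and 2 (4.72%), and 3 within replicates 3 and 4 (3.42%); leaving out 1 library gave 4 to 5 (7.28% to 10.3%).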
